A study of Homo sapiens with 2 samples.

Results

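The tubulin isotypes described here are 10 genes chosen by symbol from the mRNA data of U87MG, an established human glioblastoma cell line: the alpha-tubulins TUBA1A, TUBA1B and TUBA1C, the beta-tubulins TUBB, TUBB2A, TUBB2B, TUBB3, TUBB4B and TUBB6, and the gamma-tubulin TUBG1. The mRNA file listed 21445 genes, 14376 of them protein-coding, and 9 of the 10 tubulin genes had a row. TUBB had none. The study profiled untreated U87MG cells, grown in MEM with 10% FBS and 1% antibiotics, in 1 mRNA library and 1 small RNA library, to catalogue small RNAs and mRNAs that might act in glioblastoma. With 1 library of each kind and no control cells, the values below are levels in this line, and no difference between them could be set against a spread between replicates.

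Microtubules are hollow polymers of a dimer of alpha- and beta-tubulin, and they form the mitotic spindle, the tracks for kinesins and dynein, and the cores of cilia. The isotypes of each class are encoded by separate genes whose proteins differ mainly in an acidic carboxy-terminal tail, which carries most of the chemical modifications and contacts many microtubule-associated proteins. Gamma-tubulin is not part of the microtubule wall but nucleates it from a ring complex. TUBB3 is used as a marker of neurons, is also found in gliomas and other tumours, and has been studied in resistance to taxanes, drugs that bind beta-tubulin.

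Levels are given as FPKM, fragments scaled by gene length and library size, so that genes of different length can be compared. Of the 9 tubulin genes with a row, 8 were at 1 FPKM or more (88.9%), against 64.6% of all listed genes and 77.5% of listed coding genes. At 100 FPKM or more there were 4 tubulin genes, a level reached by 3.2% of all listed genes and 3.83% of listed coding genes. The count was also 8 at 10 FPKM (31.3% of all listed and 43.8% of coding genes) and at 5 FPKM (43% and 59.3%), and 9 at 0.5 FPKM (74.9% and 82.9%). The median over the 9 genes was 87.5 FPKM, beside 2.96 over all listed genes and 7.82 over listed coding genes. Together they held 0.381% of the FPKM sum of coding genes and 0.0404% of that of all listed genes. Coding genes held 10.6% of the FPKM sum of all listed genes. Family members are similar in sequence and the rule for shared fragments is not given in the sources used here, so the split between close copies is uncertain. In such bulk RNA, a level in fewer cells and a lower level in every cell cannot be told apart.

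**Figure D1:**
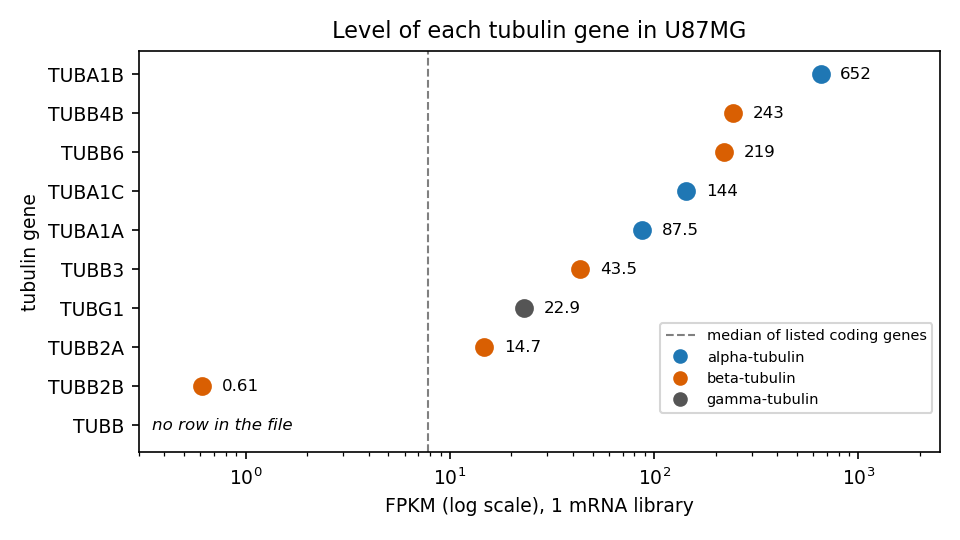
Level of each tubulin gene in the mRNA library, in FPKM on a log scale, coloured by class, with the median of listed coding genes as a dashed line. TUBA1B stands highest at 652 FPKM, TUBB2B is the only gene with a row left of the line, and TUBB has no row.

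Among the alpha-tubulins, TUBA1B, the isotype widely used as a housekeeping gene, was at 652 FPKM and ranked 59 among the listed coding genes. TUBA1C, also expressed in many dividing tissues, was at 144 FPKM, rank 367. TUBA1A, the main alpha-tubulin of developing neurons, was at 87.5 FPKM, rank 654. TUBA1B was therefore 7.45 times the level of TUBA1A, and it held 73.8% of the summed alpha-tubulin FPKM, against 16.3% for TUBA1C and 9.90% for TUBA1A. These 3 genes lie side by side on chromosome 12 and encode nearly the same protein.

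Most of the FPKM of the beta-tubulin genes with a row was held by a pair of genes of almost equal level. TUBB4B, a broadly expressed isotype that is also prominent in cilia, was at 243 FPKM, rank 197 among coding genes. TUBB6, a divergent beta-tubulin of many non-neuronal tissues, was at 219 FPKM, rank 226. The ratio of TUBB4B to TUBB6 was 1.11, the smallest step between neighbours in the order of the 9 levels. TUBB4B held 46.6% and TUBB6 42.1% of the beta sum, in which TUBB has no value. With all beta rows, pseudogenes included, the TUBB4B share was 34.0%. In RefSeq on GRCh38, TUBB6 overlaps the coding gene AFG3L2, listed at 37.8 FPKM, and TUBB4B overlaps CIMIP2A, listed at 0.478. Whether strand was used in counting is not given in the sources used here.

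TUBB3, the class III isotype, was at 43.5 FPKM, rank 1571 of the listed coding genes, and held 8.35% of the beta sum. TUBB4B was 5.59 times and TUBB6 5.04 times its level. The 6 neuron markers read here were below TUBB3 or had no row, which does not hold for every gene linked to neurons. SNAP25, a synaptic fusion protein, was at 16.3 FPKM and MAP2 at 1.37. SYT1 (0.238), RBFOX3 (0.0940) and ELAVL3 (0.0512) were listed below 1 FPKM, and STMN2 had no row. Of the 5 astrocyte markers, GJA1 was at 143 FPKM, ALDOC at 20.99 and SLC1A3 at 19.3, while GFAP was at 0.331 and S100B had no row. The mesenchymal markers VIM, LGALS1, CD44 and FN1 lay between 538 and 2420 FPKM. The endothelial, immune and red blood cell markers, 9 genes in all, were below 1 FPKM or had no row, except KDR at 3.29. The part of any other cell type in the TUBB3 level was not tested.

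TUBB2A and TUBB2B, neighbouring genes on chromosome 6 that encode nearly identical class II proteins, were far apart in level. TUBB2A was at 14.7 FPKM, rank 4803 of the coding genes, and TUBB2B, which is prominent in the developing brain, at 0.610 FPKM, rank 11665. The difference was 24.2-fold, the widest step between neighbours in the order of levels. TUBB2A held 2.83% and TUBB2B 0.117% of the beta sum. TUBB2B was the 1 gene of the 9 below 1 FPKM and below the median of listed coding genes.

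**Figure D2:**
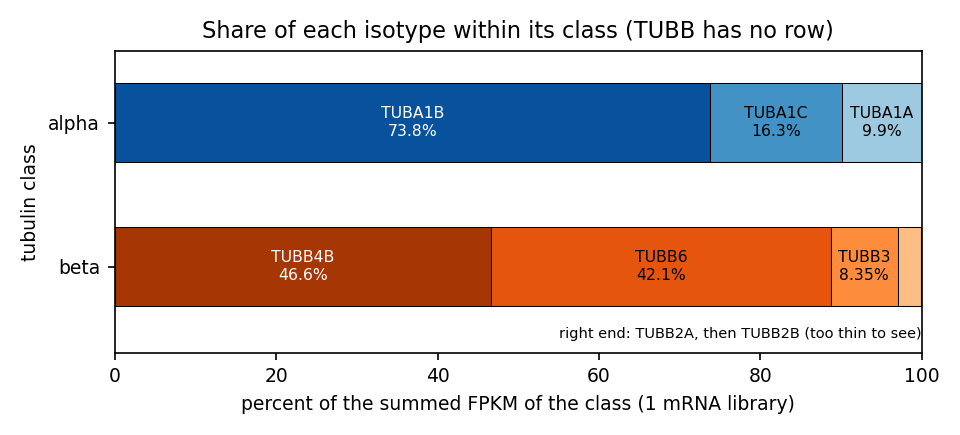
Share of each isotype in the summed FPKM of its class, as a percentage, with alpha-tubulins above and beta-tubulins below. TUBA1B takes 73.8% of the alpha bar, whereas TUBB4B and TUBB6 take 46.6% and 42.1% of the beta bar. TUBB has no row and is not in the beta bar.

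TUBB, the class I beta-tubulin that is the main isotype of most dividing cells, had no row, which is not read as a lack of expression. It lies in the major histocompatibility complex on chromosome 6. Of the 5 coding genes on either side of it in RefSeq order, 1 of 10 had a row, IER3 at 0.226 FPKM. Around the other 9 tubulin genes, between 7 and 10 of the neighbouring genes had a row. The window around TUBB3 held 8 neighbours, since the gene is close to the end of chromosome 16, and the others held 10.

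Rows of tubulin pseudogenes, mostly untranslated copies of the genes, were found for 13 symbols. All had the type pseudogene except TUBB8P7, a polymorphic pseudogene. Of the 13, 4 were at 1 FPKM or more, beside 64.6% of all listed genes. TUBBP2 was at 101 FPKM and TUBBP1 at 88.5 FPKM, both named as copies of TUBB. They ranked 16 and 21 among the 2843 rows of type pseudogene, and their summed value was 189.7 FPKM, beside 219 for TUBB6. TUBB3P2 (3.75) and TUBA3FP (3.48) were the other two, and the remaining 9 ranged from 0.0887 for TUBB8P7 to 0.913 for TUBAP2. Beta-tubulin pseudogenes held 27.1% of the FPKM of all beta-tubulin rows. Whether fragments of TUBB stand under these names was not tested.

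The alpha sum was 884 FPKM and the beta sum 521 FPKM, a ratio of 1.70 over the 3 alpha and 5 beta genes with a row. The ratio was 1.33 with all other alpha and beta rows, pseudogenes included. Without TUBA1B and TUBB4B it was 0.832. The direction of the ratio rested on TUBA1B, which at 652 FPKM was by itself above the beta sum. Because TUBB entered with no value, the ratio does not describe the whole pool of tubulin mRNA.

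**Figure D3:**
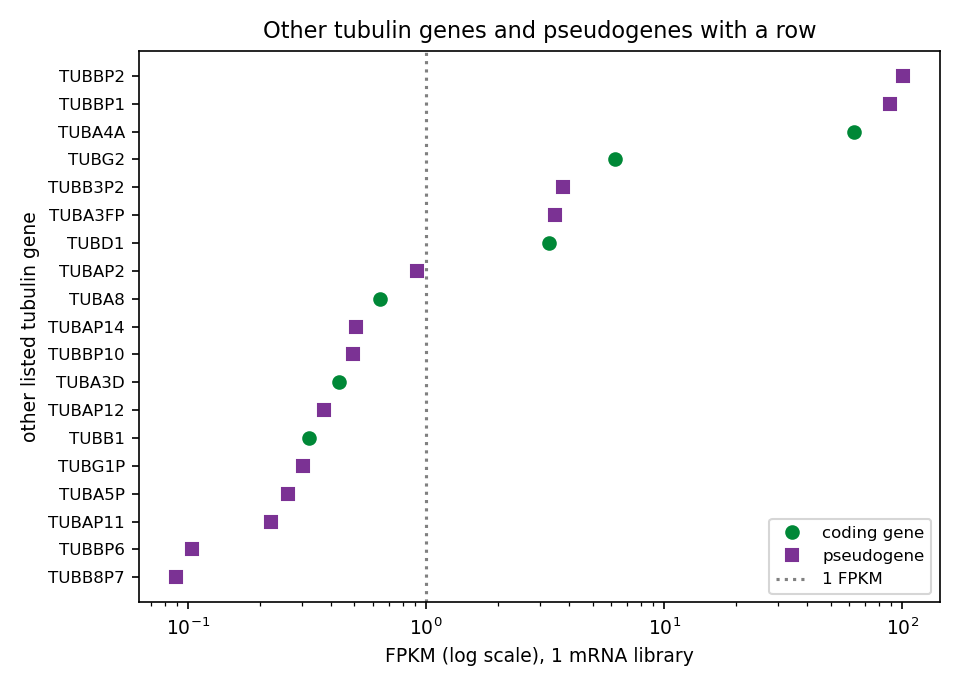
FPKM on a log scale of the other tubulin genes (circles) and pseudogenes (squares) that have a row, with 1 FPKM as a dotted line. TUBBP2 and TUBBP1 lie above all of the other coding genes shown, of which TUBA4A is highest at 62.5 FPKM.

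TUBG1, the gamma-tubulin that nucleates microtubules at the centrosome, was at 22.9 FPKM, rank 3149 of the coding genes. TUBA1B was 28.4 times this level. Its neighbour and close copy TUBG2, which is mainly neural, was at 6.23 FPKM. All 12 genes of the gamma-tubulin ring complex and its anchors had a row at or above 1 FPKM, as did 77.5% of listed coding genes, and their median was 15.4 FPKM, beside 7.82. TUBGCP2 (78.4), MZT2B (76.99) and MZT2A (40.8), a pair of near-identical small subunits, and the small subunit MZT1 (26.5) were highest. NEDD1, which brings the ring to the spindle, was at 7.04 FPKM and TUBGCP6 at 6.11, the lowest of the list.

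Of the tubulin genes outside the 10, TUBA4A, abundant in muscle and platelets, was highest at 62.5 FPKM, below TUBA1A and above TUBB3. TUBA8 was at 0.643 and TUBA3D, a testis isotype, at 0.430, while TUBA3C, TUBA3E and TUBAL3 had no row. TUBB1, the isotype of platelets, was at 0.323, and TUBB4A, an isotype of brain, and TUBB8, of the oocyte, had no row. The centriolar delta-tubulin TUBD1 was at 3.27 FPKM, and TUBE1, epsilon-tubulin, had no row. Of these genes and TUBG2, 12 in all, 6 had a row and 3 (TUBA4A, TUBG2 and TUBD1) reached 1 FPKM, beside 77.5% of listed coding genes.

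The 250 bases before the transcription start are shown for TUBA1B and TUBB4B, the highest alpha and beta genes with a row. They are also shown for TUBB2A and TUBB2B, the adjacent pair with the widest step in level. They are RefSeq sequence on GRCh38.p14, read 5′ to 3′ in the direction of the gene. Capitals mark the CCAAT box, a common promoter element, on either strand (CCAAT or ATTGG). They also mark the TATA element, in the exact form TATAAA only. Other TATA-like stretches, such as tatataag before TUBB4B, are left in lower case.
TUBA1B, chr12:49131396-49131645, minus strand: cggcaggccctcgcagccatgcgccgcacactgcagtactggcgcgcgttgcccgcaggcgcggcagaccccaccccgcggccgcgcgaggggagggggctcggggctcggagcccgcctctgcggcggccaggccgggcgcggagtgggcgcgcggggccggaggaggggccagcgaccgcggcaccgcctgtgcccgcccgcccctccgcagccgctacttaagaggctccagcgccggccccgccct
TUBB4B, chr9:137241037-137241286, plus strand: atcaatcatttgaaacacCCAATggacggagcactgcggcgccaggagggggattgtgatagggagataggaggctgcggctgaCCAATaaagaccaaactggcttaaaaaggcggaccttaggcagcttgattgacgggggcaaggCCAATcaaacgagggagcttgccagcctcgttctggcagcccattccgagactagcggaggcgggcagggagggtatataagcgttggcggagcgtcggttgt
TUBB2A, chr6:3157545-3157794, minus strand: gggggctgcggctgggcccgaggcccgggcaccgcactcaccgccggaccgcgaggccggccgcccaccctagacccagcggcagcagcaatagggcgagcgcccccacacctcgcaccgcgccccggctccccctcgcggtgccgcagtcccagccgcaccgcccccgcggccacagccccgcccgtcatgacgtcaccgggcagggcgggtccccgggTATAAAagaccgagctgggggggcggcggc
TUBB2B, chr6:3227654-3227903, minus strand: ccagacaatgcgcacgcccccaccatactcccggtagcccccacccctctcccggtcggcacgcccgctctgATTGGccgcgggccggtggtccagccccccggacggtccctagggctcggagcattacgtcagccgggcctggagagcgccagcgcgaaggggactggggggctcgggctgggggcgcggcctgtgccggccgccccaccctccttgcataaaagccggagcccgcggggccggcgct

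CCAAT stood 3 times before TUBB4B and 1 time, as ATTGG, before TUBB2B, and in neither of the windows of TUBA1B and TUBB2A. The first base of the TATAAA before TUBB2A lay 30 bases before the start. TUBB2A and TUBB2B matched at 52.7% of the columns of a global alignment of these windows, within the range of the other 5 pairs of these windows, 46.0 to 57.9%. All 10 tubulin genes had a RefSeq promoter, with 15 windows in all since some have several starts. CCAAT on either strand was in 10 of the 15 windows and in at least 1 window of 8 genes, against 32.0% of 35116 windows of the same length. GGGCGG, the GC box, on either strand, was in 9 of the 15 and in 42.6% of all windows. The exact letters TATAAA were in 1 of the 15 and 10.7% of all, and other forms of the TATA element were not counted. The motifs do not overlap in letters. Windows of 1 gene can overlap and are not independent, and a match is not a bound site.

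Newly made tubulin passes from prefoldin to the chaperonin CCT and then to cofactors that join alpha and beta into a dimer. None of the 8 CCT subunits was below 59.1 FPKM, and their median, 94.9 FPKM, was close to that of the tubulin genes. CCT5 (179), TCP1 (147), CCT7 (108) and CCT2 (104) stood above 100 FPKM, and CCT3 (85.9), CCT6A (69.7), CCT4 (67.9) and CCT8 (59.1) below. The protein complex is a pair of rings, and each ring holds 1 copy of each subunit. Of the prefoldin genes, PFDN5 was at 268 FPKM, PFDN1 at 50.2, PFDN4 at 39.1, PFDN2 at 29.2 and VBP1 at 3.12. PFDN6 had no row and lies in the major histocompatibility complex. Among the 6 cofactor genes, all with a row, TBCA (110.3), which holds beta-tubulin, and TBCB (100.04), which holds alpha-tubulin, were highest. ARL2 (30.3), TBCD (23.2), TBCE (18.1) and TBCC (4.47) make up the machine that assembles the dimer.

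Cells lower their tubulin mRNAs when free dimers accumulate, through TTC5, which recognises the start of the nascent tubulin chain. TTC5 was at 6.74 FPKM, its partner SCAPER at 4.07 and CNOT11, which links them to the deadenylase, at 11.8. The median of the 3, 6.74 FPKM, was slightly below that of listed coding genes, 7.82.

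Tubulin is modified mainly on its tails, by tyrosine, glutamate and glycine, and by acetylation of alpha-tubulin inside the microtubule. TTL, which adds the last tyrosine of alpha-tubulin, was at 41.8 FPKM, whereas the enzymes that remove it, VASH1 and VASH2, were at 1.79 and 0.115 and their partner SVBP at 8.08. The deacetylases SIRT2 and HDAC6 were at 27.2 and 5.60 FPKM, and the acetyltransferase ATAT1, a gene of the major histocompatibility complex, had no row. Of 17 genes of glutamylation and glycylation, 12 had a row and 10 of these reached 1 FPKM (83.3%), near the 77.5% of listed coding genes; the median over those with a row was 4.33 FPKM, beside 7.82. TTLL5, a polyglutamylase, was highest at 36.9 FPKM, followed by AGTPBP1, which removes glutamates, at 18.1, TTLL3, a glycylase, at 14.0 and AGBL5 at 10.8. TTLL6, TTLL8, TTLL10, AGBL1 and AGBL4 had no row. Severing enzymes cut microtubules along their length; KATNA1 was at 11.8 FPKM, KATNAL1 at 11.03, FIGNL1 at 9.52, SPAST at 4.76 and FIGN at 1.85.

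The mRNAs of proteins that bind the microtubule wall differed widely in level. MAP1B, a large MAP of growing axons, was at 139.7 FPKM and MAP4, the main MAP of non-neuronal cells, at 102. MAP7D1 (54.7) and MAP1A (50.3) followed. DCX, the MAP of migrating neurons, had no row, and MAPT, which encodes tau, was at 0.0839 FPKM. Of the 12 structural MAPs 9 reached 1 FPKM, 81.8% of those with a row beside 77.5% of listed coding genes, and the median over the 11 with a row was 33.5. Among the 10 plus-end and assembly factors, 9 reached 1 FPKM (90% beside the same 77.5%) and the median was 24.2. Highest were the end-binding MAPRE1 (60.2), the polymerase CKAP5 (46.8), the spindle factor TPX2 (38.3) and CLIP1 (36.5). MAPRE3 (6.90) and CLIP2 (0.312) were lowest. STMN1, which binds free dimers and destabilises microtubules, was at 178 FPKM, above all tubulin genes but TUBA1B, TUBB4B and TUBB6. The neuronal stathmins STMN2, STMN3 and STMN4 had no row, and the depolymerising kinesins KIF2A (17.7), KIF18A (17.5) and KIF2C (15.2) lay close together. Over all 16 lists, 103 of 120 genes had a row and 94 were at 1 FPKM or more, 91.3% of those with a row. This is above the 77.5% of listed coding genes.

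**Figure D4:**
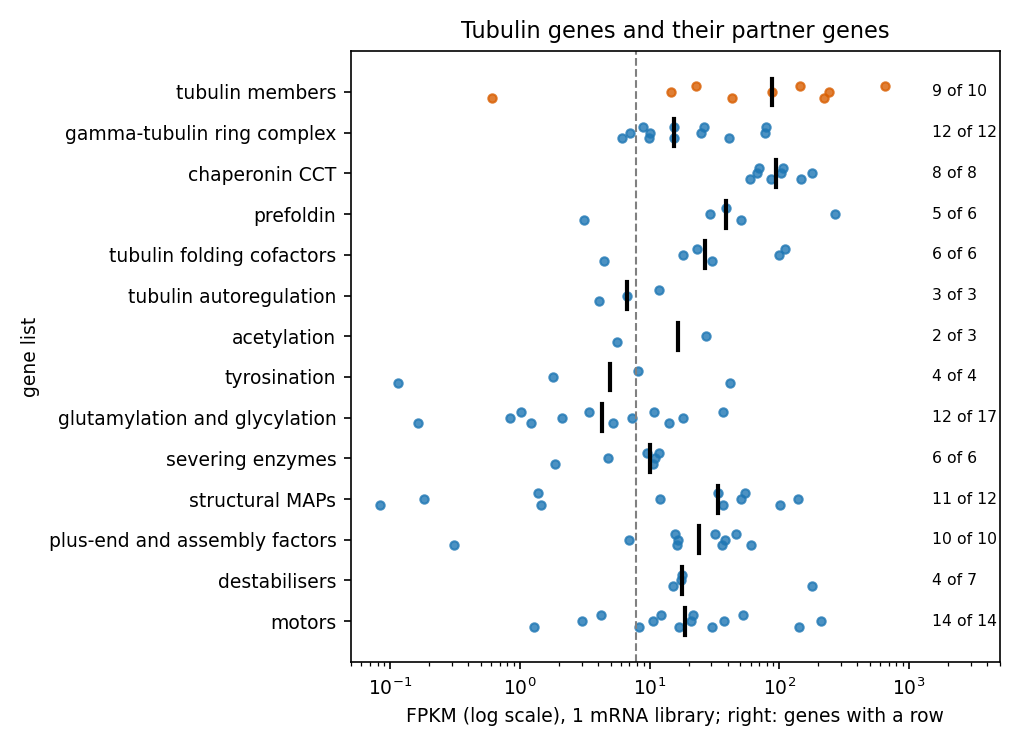
FPKM on a log scale of the tubulin genes (top) and of each list of partner genes, with a black bar at the median of the genes with a row and the median of listed coding genes as a dashed line. The tubulin genes have a median of 87.5 FPKM and the chaperonin genes 94.9, while glutamylation and glycylation genes have 4.33.

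The small RNA library of the same line was read for the miR-200 family, since miR-200c has been reported to lower TUBB3 in other tumour cells. The mature sequences are shown, from RefSeq on GRCh38.p14 and the same as in the deposited file, with the seed, bases 2 to 8, in capitals. The seed is the stretch that pairs with target mRNAs.
miR-200b-3p: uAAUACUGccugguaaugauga
miR-200c-3p: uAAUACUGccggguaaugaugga
miR-429: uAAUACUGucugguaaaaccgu
miR-200a-3p: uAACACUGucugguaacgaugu
miR-141-3p: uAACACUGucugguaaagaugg

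The first 3 share the seed AAUACUG and the other two AACACUG. miR-200b-3p had 864 reads, 0.00733% of the 11785001 miRNA reads (exact Clopper-Pearson 95% interval 0.00685 to 0.00784%). miR-200c-3p had 205 reads or 0.00174% (0.00151 to 0.00199%), rank 256 of 1224 listed miRNAs. miR-429 had 9 reads, miR-200a-3p 74 and miR-141-3p 3. The miRNAs with the seed of miR-200c summed to 1078 reads, against 77 for the other seed. TUBB3 in the mRNA library was at 43.5 FPKM. Levels in 1 library of each kind do not show whether these miRNAs act on TUBB3, and the intervals cover counting error only.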

How the data were processed

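The authors deposited the mRNA data of 1 U87MG library as FPKM per Ensembl gene, per the file headers. The small RNA values are raw read counts per mature miRNA, per the file headers, from 1 further library deposited by the authors. The submitters' processing notes name cutadapt and the builds hg19 and GRCh37, with no role. For the mRNA library, the aligner, FPKM program, annotation and depth are not given in the sources. Listed FPKM values reached down to 3.04e-06, with 12 rows under 0.0001. Whether they rest on whole fragments was not tested. The miRNA reads summed to 11785001. Piwi-interacting RNA counts were not used.

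Rows were joined to current symbols through their Ensembl identifier, or else through the symbol or an older symbol. Of the 21445 identifiers, 20595 were in the gene name table. A gene counted as expressed at 1 FPKM or more. A gene without a row was left out of medians. No test was made, since each group is 1 library. The 10 tubulin genes and the 16 lists with 120 genes were chosen with earlier results of these data known. From lists of more than 8 genes, the 4 highest and the 2 lowest members are named, those without a row first, and from shorter lists all, except an item that is not reported here. A comparison of the tubulin proteins was planned and not made, as no protein sequences were used here. The list summary was checked on simulated lists. Promoter and miRNA sequences came from RefSeq on GRCh38.p14, and coordinates are given only with these sequences. Intervals are exact Clopper-Pearson at 95%. The work used Python 3.11.15 with pandas 2.3.3 and scipy 1.17.1.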

Additional observations from a re-analysis of the deposited data

How the results depend on the processing

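The alternatives were other FPKM thresholds, other sets of tubulin rows, missing rows set to 0, other pseudocounts and ranks among coding genes only. The number of tubulin genes past the threshold was 9 at 0.5 FPKM, 8 at 5 and at 10, and 4 at 100. Of the 103 genes with a row over all partner lists, 96 reached 0.5 FPKM, beside 82.9% of listed coding genes. At 5 FPKM there were 78, beside 59.3%, and at 1 FPKM 94, beside 77.5%. The median of the tubulin genes was 65.5 FPKM with TUBB set to 0 and 116 FPKM without TUBG1. The alpha to beta ratio was 1.82 with all listed tubulin genes and 1.33 with pseudogenes added. It was 0.832 without the highest alpha and the highest beta gene with a row. With all rows and pseudogenes the share of TUBA1B in its class was 68.4% and that of TUBB4B 34.0%. The percentile of TUBB2B was 28.1 among all listed genes and 18.9 among coding genes, and that of TUBA1B 99.4 and 99.6. The log2 level of TUBB2B was 0.69 with a pseudocount of 1, -0.49 with 0.1 and -0.69 with 0.01. No paired analysis was possible because there was 1 library of each kind. For the same reason no library could be left out, and with the depth of the mRNA library unknown no interval can be put on an FPKM.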

Other observations

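Of the genes for motors that run on microtubules, 14 were read; all 14 reached 1 FPKM, as did 77.5% of listed coding genes, and their median was 18.9 FPKM, beside 7.82. DYNC1H1, the dynein heavy chain, was at 208 FPKM, DYNLL1, a dynein light chain, at 142, and KIF5B, the broadly expressed kinesin heavy chain, at 52.8. DCTN1, the large subunit of dynactin, followed at 37.2 FPKM. The kinesin heavy chains of neurons, KIF5A and KIF5C, were the lowest of the list at 3.01 and 1.27 FPKM.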
